A study of Homo sapiens with 8 samples.

Results

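The genes described here are 49 interferon-stimulated genes, a broad set of antiviral effectors and of the sensors and transcription factors that interferon switches on. They were taken by gene name from a table of 19158 genes, and all 49 were found in it. Their RNA was measured by bulk RNA sequencing in A549, an epithelial cell line from a human lung adenocarcinoma, labelled wild type and grown in DMEM with fetal bovine serum. There were 4 untreated wells and 4 wells treated with dexamethasone, a synthetic glucocorticoid, at 1 µM for 48 h. The labels number the replicates of each group 1, 3, 4 and 5, and these are called wells here. All carry the same batch label. Every well came from 1 cell line, so the p-values measure the spread between wells and not between donors. No library was treated with interferon or infected, so levels in the untreated wells are those of unstimulated cells.

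Interferons are secreted proteins that bind receptors on the cell surface. The receptors act through the kinases JAK1, JAK2 and TYK2, and the kinases phosphorylate transcription factors of the STAT family, STAT2 among them. Together with IRF9 these form a complex that binds a short DNA element, the interferon-stimulated response element (ISRE), near the start of many of these genes, and their products then block viral entry, translation and replication. Glucocorticoids, used in the clinic to dampen inflammation, bind the glucocorticoid receptor, which is itself a transcription factor.

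The deposited values are called counts in their names but are not whole numbers. Here they are read as fragments per kilobase of transcript and unit of library depth (FPKM). They were divided by 1 scaling factor per library and are called scaled FPKM below. FPKM divides by transcript length, so levels of different genes can be set side by side. Values of a group are given in the order of wells 1, 3, 4 and 5. A change is the difference between group means of log2(scaled FPKM + 1), dexamethasone minus untreated, which understates the fold change of low genes. Each change was tested with limma, and a gene is called higher or lower at an adjusted p under 0.05. The adjustment was made over the 12161 genes that had at least 0.5 FPKM in at least 4 libraries.

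Depth, estimated from the steps between low values, lay between 24720000 and 29060000 fragments per library. The labels were checked on known targets: FKBP5, a classical glucocorticoid target, was at 5.68 ± 1.21 scaled FPKM (SD, n = 4) without it and at 134 ± 33.6 (SD, n = 4) with it, and TSC22D3 and PER1 were called higher too. The epithelial keratins KRT8, KRT18 and KRT7 were high in every library, and EPCAM was under the filter on low values. Other epithelial markers moved: KRT19 and CLDN4 were called lower and CDH1 higher. The leukocyte markers PTPRC, CD3E and MS4A1 were at 0. Summed over the leukocyte marker list, where only CD14 and ITGAX passed the filter, the level was 2.88 to 4.62 scaled FPKM untreated and 1.26 to 2.04 with dexamethasone. The fibroblast list summed to 1.73 to 2.7 and 0.620 to 0.816, with COL1A1 as its only tested gene. Every library is labelled as the A549 line, and where these low levels come from was not tested. In bulk RNA, fewer cells of a kind and less RNA per cell cannot be told apart. The library numbered 5 in each group stood apart from the other 3, and changes across all genes followed the GC content of their transcripts, so both are taken up beside the results they touch.

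The interferon-stimulated genes did not move together. Of the 49 genes, 32 passed the filter on low values and 17 did not. Dexamethasone raised 5 of the 32, STAT2, SP100, IFIT1, IFIT3 and IFIT5, and lowered 3, OAS1, OAS3 and HERC5. That is 25% of the 32, beside 26.9% of all genes tested. By direction, 12.3% of all genes tested were called higher and 14.6% lower. The median change of the 32 was 0.063 on the log2 scale, against 0.0059 over all genes tested. Changes were positive for 17 and negative for 15. The untreated and dexamethasone wells did not overlap in 13 of the 32 genes, 6 with dexamethasone above and 7 below, which is 40.6% beside 31.6% of all genes tested. After scaling, all 8 called genes were above 0.5 in every library, the lowest being IFIT3 in untreated well 5 at 0.604. The filter used FPKM before scaling, where that value was just under the minimum. Each called gene reached the minimum in wells of both groups, so none passed the filter through 1 group alone.

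**Figure D1:**
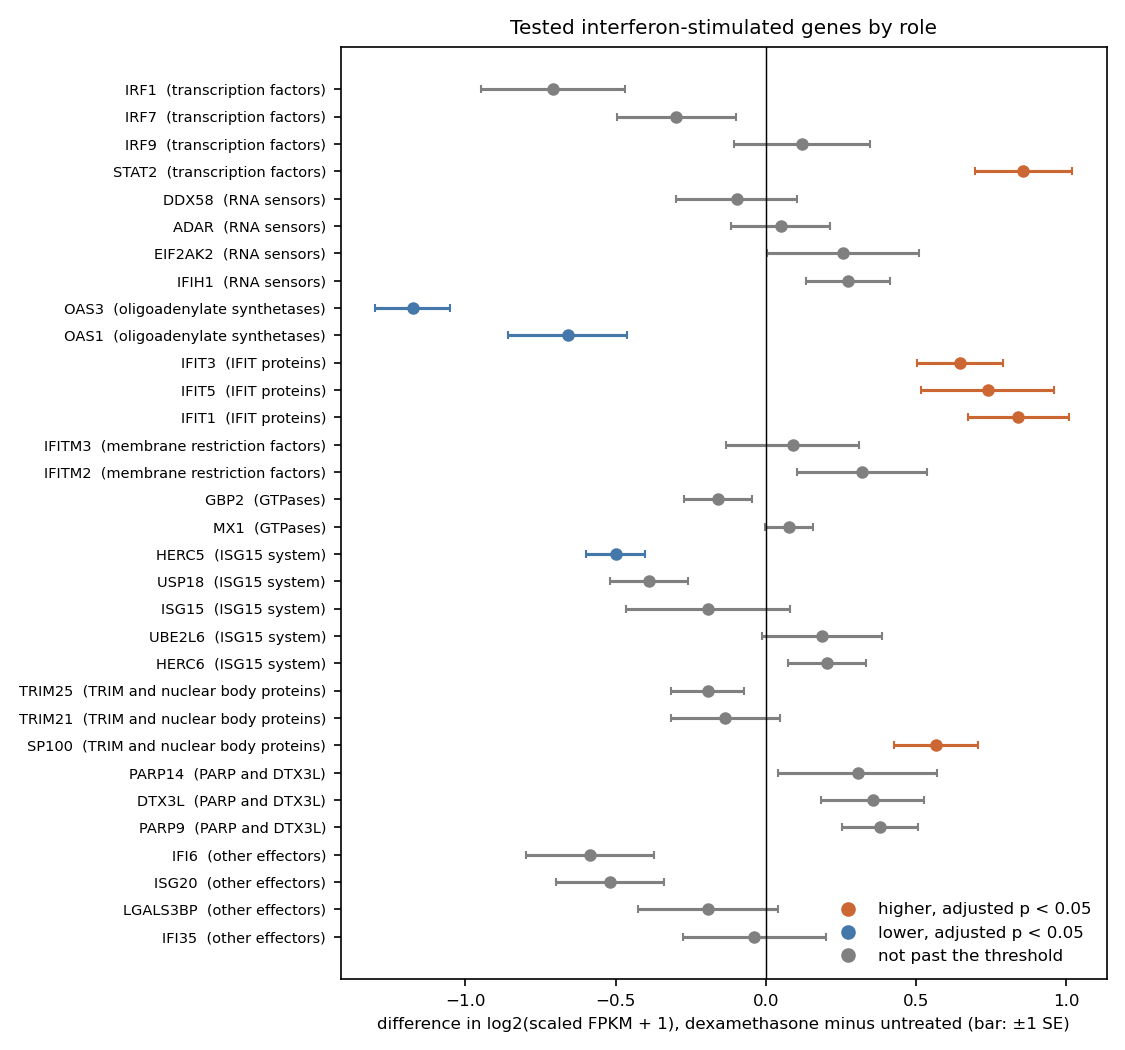
Change of each tested interferon-stimulated gene, as the difference in log2(scaled FPKM + 1) between 4 dexamethasone and 4 untreated wells. Bars give the standard error, and genes are arranged by role. Orange points are called higher and blue points lower at an adjusted p under 0.05, and grey points are not called. The 3 tested IFIT genes lie to the right of 0 and the 2 tested oligoadenylate synthetases to the left.

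Without both libraries numbered 5, a fit that called 21.9% of all genes tested higher and 23.1% lower, the 8 called genes kept their direction and their call. The change of STAT2 was then 0.94, that of SP100 0.49, IFIT1 1.04, IFIT3 0.57 and IFIT5 0.68. Those of OAS1, OAS3 and HERC5 were -0.61, -1.23 and -0.56. IRF1, ISG20, IFI6 and USP18 were then called lower in addition, and PARP9 and IFITM2 higher. IFIT2 was called higher too, but with libraries left out the filter asked for 0.5 FPKM in only 3 libraries. IFIT2 met it through its dexamethasone wells alone, so no weight is put on that call.

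Among the 4 transcription factors, STAT2, a subunit of the interferon-activated complex, rose. Its level was 10.5, 9.35, 8.51 and 14.3 scaled FPKM in the untreated wells and 18.3, 19.9, 18.7 and 22.4 with dexamethasone. Every treated well was above every untreated one, although untreated well 5 stood closer to the treated wells than the other 3 did. Means were 10.7 ± 2.57 and 19.8 ± 1.86 (SD, n = 4 each), a ratio of 1.86, and the log2 change was 0.86 with a standard error of 0.16 (limma, adjusted p = 0.00398). STAT2 lies on chromosome 12 from 56341597 to 56360155 (GRCh38, as in the deposited tables).

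IRF9, the DNA-binding subunit of that complex, did not pass the test. It was at 4.82, 2.97, 2.87 and 5.93 untreated and at 4.07, 3.44, 4.33 and 6.19 with dexamethasone, with overlapping groups and a log2 change of 0.12 (SE 0.23, adjusted p = 0.717). IRF9 overlaps another annotated protein-coding gene on its strand, which may share its reads. The same holds for DDX58, GBP2, TRIM25 and IFNAR2, among others. IRF7, which drives interferon genes themselves, was low at 1.05 to 3.35 over all 8 libraries and had a change of -0.30 (SE 0.20, adjusted p = 0.293).

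IRF1, an activator that both interferon types and NF-kB induce, was lower in every dexamethasone well but missed the threshold. Untreated wells held 7.75, 7.47, 7.45 and 16.4 scaled FPKM and treated wells 4.91, 4.96, 4.72 and 6.60. Untreated well 5 was far above the other 3, and the groups did not overlap. The change was -0.71 with a standard error of 0.24 (adjusted p = 0.0551), and without both libraries numbered 5 it was -0.55 with a standard error of 0.077 (adjusted p = 0.001).

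None of the 4 tested sensors and effectors of double-stranded RNA passed the test. DDX58, which encodes the RNA sensor RIG-I, was at 2.37, 2.81, 2.57 and 0.985 untreated and at 2.08, 1.82, 2.14 and 1.55 with dexamethasone. Its lowest value was untreated well 5 and the groups overlapped, with a change of -0.10 (SE 0.20, adjusted p = 0.743). IFIH1, which encodes the related sensor MDA5, was at 0.702, 0.937, 0.833 and 0.373 untreated and at 1.54, 0.909, 0.889 and 0.936 with dexamethasone, and its groups overlapped too (0.27, SE 0.14, adjusted p = 0.175).

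The kinase PKR, encoded by EIF2AK2, halts translation when it binds double-stranded RNA. EIF2AK2 was at 10.6, 9.29, 9.93 and 4.41 untreated and at 12.8, 10.2, 9.82 and 7.66 with dexamethasone, a change of 0.26 (SE 0.25, adjusted p = 0.472). ADAR, which edits adenosines in double-stranded RNA, had the highest level of the sensor group, 43.2 to 58.0 untreated and 38.8 to 59.9 with dexamethasone, and a change of 0.049 (SE 0.16, adjusted p = 0.843). The sensor DHX58 (LGP2) was under the filter, at no more than 0.269 in any library.

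Oligoadenylate synthetases make 2-5A, the second messenger that turns on the RNA-degrading enzyme RNase L. The 2 of the 4 that passed the filter, OAS1 and OAS3, both fell. OAS3 was at 20.3, 20.6, 19.3 and 22.3 scaled FPKM untreated and at 7.55, 8.33, 8.31 and 10.3 with dexamethasone. The gap between the groups was wider than the range within either. Means were 20.6 ± 1.24 and 8.62 ± 1.17 (SD, n = 4 each), a ratio of 0.418, and the change of -1.17 (SE 0.12, adjusted p = 0.000118) had the smallest adjusted p of the 32 tested genes.

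OAS1 was at 7.27, 6.81, 7.67 and 11.8 untreated and at 3.89, 5.69, 3.94 and 6.11 with dexamethasone. Treated wells were all below the untreated ones, but treated well 5 came within 1 scaled FPKM of untreated well 3. The ratio of means was 0.586 and the change -0.66 (SE 0.20, adjusted p = 0.0351). This call was lost without the filter (-0.66, adjusted p = 0.0531), with or without the GC trend, and when 1 of untreated well 1, untreated well 4, dexamethasone well 1 or dexamethasone well 4 was left out. OAS1, OAS3 and OAS2 lie in 1 cluster on chromosome 12, from 112906777 to 113011723. OAS2, in the same cluster, was at no more than 0.0243 in any library, and OASL, a relative without synthetase activity on another stretch of chromosome 12, at no more than 0.309.

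The IFIT proteins bind foreign or incompletely capped RNA and keep it from being translated. Their 4 genes stand side by side on chromosome 10, from 89283694 to 89421001, and all 3 that passed the filter rose. IFIT1, which recognises caps that lack a methyl group, was at 0.745, 0.799, 0.675 and 0.890 scaled FPKM untreated and at 2.50, 2.05, 3.16 and 1.30 with dexamethasone. Treated wells varied more among themselves than untreated ones, with well 5 the lowest, and none reached down to the untreated range. The ratio of means was 2.9, and the change 0.84 (SE 0.17, adjusted p = 0.00514).

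IFIT3, which binds IFIT1 and stabilises it, was at 0.769, 1.05, 1.56 and 0.604 untreated and at 2.12, 2.10, 2.11 and 1.97 with dexamethasone. Here the untreated wells varied and the treated wells lay close together, above all of them. The ratio of means was 2.08 and the change 0.65 (SE 0.14, adjusted p = 0.00903).

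IFIT5, a family member that binds RNA with a 5' triphosphate, was at 2.34, 2.92, 2.96 and 1.19 untreated and at 5.63, 4.27, 5.12 and 3.12 with dexamethasone. Well 5 was the lowest of each group, and treated well 5 was just above the highest untreated well. Its change was 0.74 (SE 0.22, adjusted p = 0.0352), with a ratio of means of 1.93. The call was lost without the filter (adjusted p = 0.0515), without scaling (adjusted p = 0.0828), and without untreated well 1 or dexamethasone well 1, 3 or 4. IFIT1, IFIT2 and IFIT3 overlap LIPA, a lysosomal lipase gene on the opposite strand, and whether the counting used strand is not given in the sources used here.

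IFIT2, the fourth of the cluster, promotes cell death in overexpression studies and did not pass the filter. It was at 0.316, 0.301, 0.386 and 0.192 untreated and at 0.907, 0.796, 0.720 and 0.499 with dexamethasone, so its groups did not overlap either. In a fit without the filter its change was 0.41 (SE 0.080, adjusted p = 0.00852).

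**Figure D2:**
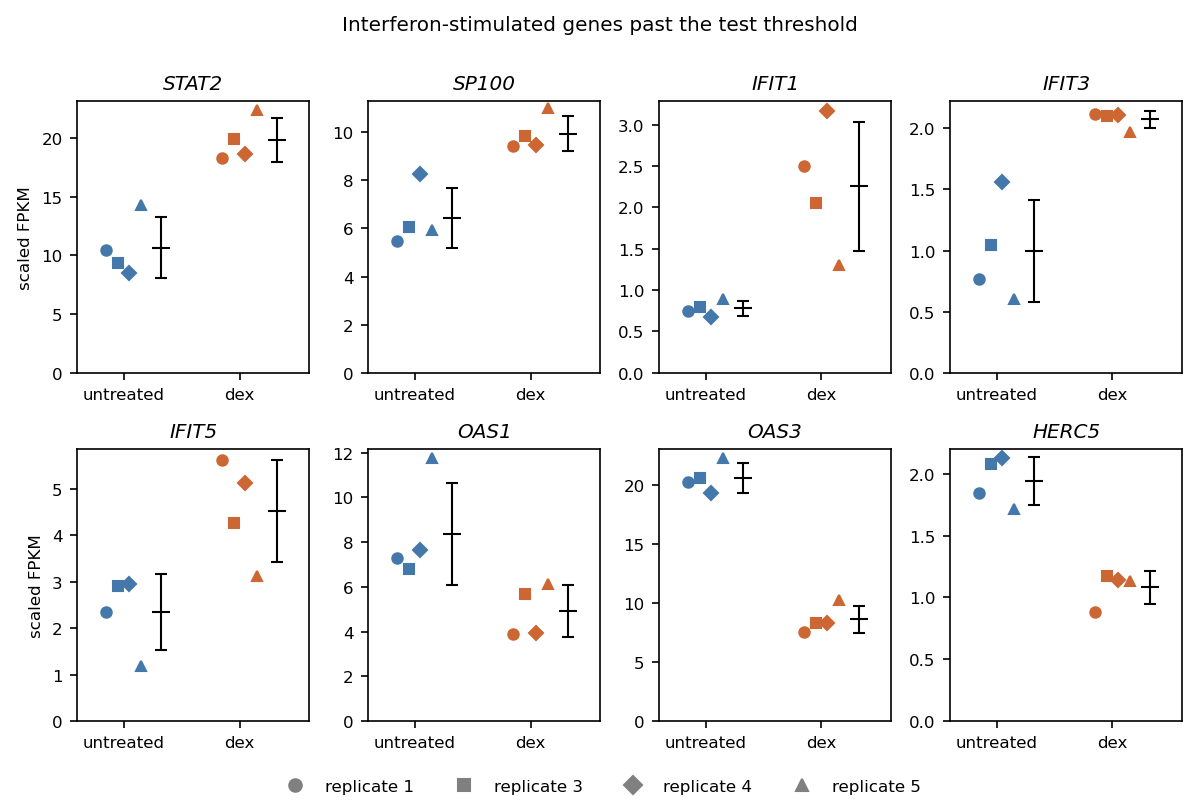
Scaled FPKM of the 8 interferon-stimulated genes called higher or lower, in 4 untreated and 4 dexamethasone ("dex") wells; marker shapes give the well number, and bars the mean and SD of each group. Each axis starts at 0, and no gene's groups overlap; OAS3 runs from 19.3 to 22.3 untreated and from 7.55 to 10.3 treated.

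The sequences just before the genes were searched for the element that interferon signalling uses, since it is where the STAT2 complex binds. RefSeq promoters on GRCh38.p14 were matched for 39 of the 49 genes, using the 250 bases before the first listed start, and searched on both strands for the ISRE core, 2 copies of GAAA with any 2 bases between them, which on the opposite strand reads as 2 copies of TTTC. It was found in 19 of the 39 (48.7%), against 404 of 14536 promoters of genes in the table (2.78%). The genes were chosen as interferon-stimulated, so an excess over all promoters describes the set and is no result of the treatment. Matches stood in 3 of the 5 genes called higher, 2 of the 3 called lower, 7 of 20 tested and not called, and 7 of 11 not tested. The element was thus present in genes that moved in both directions. The 5 called genes with a match are printed 5' to 3' on the gene's strand, with the ISRE matches in capitals: 3 that rose, chr10:89392373-89392622, chr10:89327747-89327996 and chr10:89414318-89414567, and 2 that fell, chr12:112938224-112938473 and chr4:88456869-88457118, all on the plus strand.
IFIT1: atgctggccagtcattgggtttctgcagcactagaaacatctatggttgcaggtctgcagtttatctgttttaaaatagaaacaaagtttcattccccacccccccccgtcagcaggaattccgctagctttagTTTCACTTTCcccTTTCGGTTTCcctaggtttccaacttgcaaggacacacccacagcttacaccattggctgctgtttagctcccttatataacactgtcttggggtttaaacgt
IFIT3: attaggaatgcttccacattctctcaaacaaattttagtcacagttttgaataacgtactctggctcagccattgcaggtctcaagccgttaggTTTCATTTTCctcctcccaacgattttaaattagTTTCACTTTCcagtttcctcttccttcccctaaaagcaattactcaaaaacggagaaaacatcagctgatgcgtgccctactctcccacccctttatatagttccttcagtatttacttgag
IFIT5: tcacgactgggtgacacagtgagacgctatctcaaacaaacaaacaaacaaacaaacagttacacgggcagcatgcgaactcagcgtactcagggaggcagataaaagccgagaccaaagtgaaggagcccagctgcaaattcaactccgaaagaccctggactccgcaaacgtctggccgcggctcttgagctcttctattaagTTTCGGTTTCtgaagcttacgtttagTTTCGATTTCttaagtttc
OAS3: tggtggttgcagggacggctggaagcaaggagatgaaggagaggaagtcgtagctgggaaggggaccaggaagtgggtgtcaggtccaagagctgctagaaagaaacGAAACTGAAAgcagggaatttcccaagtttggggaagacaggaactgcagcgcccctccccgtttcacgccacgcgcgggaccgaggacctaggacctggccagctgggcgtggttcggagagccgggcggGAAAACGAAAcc
HERC5: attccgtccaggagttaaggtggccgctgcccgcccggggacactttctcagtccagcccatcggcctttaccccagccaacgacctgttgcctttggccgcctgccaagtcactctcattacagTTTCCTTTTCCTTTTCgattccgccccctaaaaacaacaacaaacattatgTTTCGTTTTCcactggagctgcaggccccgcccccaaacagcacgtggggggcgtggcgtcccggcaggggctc

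IFIT1, IFIT3 and IFIT5 each hold 2 matches in these 250 bases, all in the TTTC orientation. OAS3 holds 2 in the GAAA orientation, the nearer starting 12 bases before the start, and HERC5 holds 3, of which 2 overlap by 4 bases and read as 1 run of capitals. STAT2, SP100 and OAS1 had no match to these letters in the window. The GAS element, which STAT dimers bind, TTC and GAA with any 3 bases between them, was found in 8 of the 39 promoters (20.5%) against 6.1% of all, among them OAS1 and IRF1. The core of the glucocorticoid response element, GNACA and TGTNC with any 3 bases between them, was found in 0 of the 39 and in 31 of all 14536 (0.213%). A match describes letters in this window only, and binding was not measured.

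Proteins that act at membranes gave no call. IFITM2 and IFITM3, which hinder fusion of viral and cell membranes, were among the better expressed genes of the set, at 13.0 to 27.1 and 7.08 to 15.0 scaled FPKM over all libraries, with changes of 0.32 (adjusted p = 0.299) and 0.089 (adjusted p = 0.785). Because these genes are near copies of each other, reads may have been split between them. IFITM2 also overlaps another annotated protein-coding gene on its strand, which may share its reads. IFITM1 and BST2 (tetherin, which holds budding virions at the cell surface) were under the filter, at no more than 0.260 and 0.226.

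The interferon-induced GTPases were low throughout. MX1, which traps incoming viral nucleocapsids, was at 0.531, 0.439, 0.533 and 0.648 untreated and at 0.590, 0.601, 0.544 and 0.755 with dexamethasone, with overlapping groups and a change of 0.077 (adjusted p = 0.502). GBP2, a guanylate-binding protein, had a change of -0.16 (adjusted p = 0.317). GBP1 was under the filter, and MX2 reached no more than 0.0155 in any library.

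ISG15 is a ubiquitin-like protein that is attached to other proteins by a small set of enzymes. In that system only HERC5, the ligase that performs the last step, passed the test, and it fell. HERC5 was at 1.85, 2.08, 2.13 and 1.72 scaled FPKM untreated and at 0.884, 1.17, 1.14 and 1.13 with dexamethasone. The groups did not overlap, and treated well 1 was the lowest of all 8. Means were 1.94 ± 0.195 and 1.08 ± 0.133 (SD, n = 4 each), with a ratio of 0.557 and a change of -0.50 (SE 0.099, adjusted p = 0.00477).

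HERC6, its neighbour on chromosome 4, had overlapping groups and a change in the other direction, 0.20 (SE 0.13, adjusted p = 0.272). USP18, which removes ISG15 and also restrains the interferon receptor, was at 5.34, 6, 6.04 and 7.46 untreated and at 4.12, 4.29, 4.44 and 5.10 with dexamethasone. These groups did not overlap, and the change of -0.39 (SE 0.13, adjusted p = 0.0515) lay just outside the threshold. ISG15 itself was at 4.68, 4.32, 3.58 and 10.3 untreated and at 4.85, 4.44, 3.30 and 5.66 with dexamethasone, with a change of -0.19 (SE 0.27, adjusted p = 0.622). Untreated well 5 alone set the higher untreated mean: without both libraries numbered 5 the change was -0.011 (SE 0.14, adjusted p = 0.956). UBE2L6, the conjugating enzyme, had a change of 0.19 (adjusted p = 0.515).

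In the group of TRIM and nuclear body proteins, SP100, a scaffold of nuclear bodies that silence incoming viral DNA, rose. It was at 5.48, 6.06, 8.28 and 5.95 scaled FPKM untreated and at 9.44, 9.85, 9.47 and 11.0 with dexamethasone, with a ratio of means of 1.54. Treated wells lay within a narrow range above the highest untreated well, number 4. The change was 0.57 (SE 0.14, adjusted p = 0.0145); it was 0.37 (adjusted p = 0.0927) once the GC trend was removed, and 0.49 (adjusted p = 0.0544) without untreated well 1. The ubiquitin ligases TRIM25 and TRIM21 had changes of -0.19 (adjusted p = 0.264) and -0.13 (adjusted p = 0.606); the groups of TRIM25 did not overlap.

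PARP9 and DTX3L form a complex that modifies histones, and PARP14 is an ADP-ribosyltransferase encoded next to them on chromosome 3. All 3 had positive changes and none passed the test. PARP9 came nearest, at 2.21, 2.80, 3.22 and 2.49 untreated and 4.28, 3.73, 3.58 and 3.50 with dexamethasone. No treated well was within the untreated range, and the change was 0.38 (SE 0.13, adjusted p = 0.0504). DTX3L (0.36, adjusted p = 0.157) and PARP14 (0.31, adjusted p = 0.415) had overlapping groups. The ends of PARP9 and DTX3L overlap on opposite strands, and reads from that short stretch cannot be told apart if strand was not used in counting.

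Of the 10 remaining effectors, 4 were tested, all with negative changes and none past the threshold. ISG20, an exonuclease, was at 2.49, 2.64, 2.84 and 4.57 untreated and at 1.54, 2.20, 1.40 and 2.31 with dexamethasone, without overlap (-0.52, SE 0.18, adjusted p = 0.0602). IFI6, a small protein with an anti-apoptotic role, was at 5.12, 5.19, 5.25 and 9.15 untreated and at 2.83, 3.59, 3.30 and 5.30 with dexamethasone, where treated well 5 was above 3 untreated wells (-0.58, SE 0.21, adjusted p = 0.0707). LGALS3BP, a secreted glycoprotein, had the highest mean level of the 49 genes, 73.4 ± 19 untreated and 64.2 ± 16.8 with dexamethasone (SD, n = 4 each; change -0.19, adjusted p = 0.565). IFI35 had a change of -0.038 (adjusted p = 0.918).

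The 17 genes under the filter ranged from almost no reads to levels that still gave many. The highest estimate was 1 fragment in any library for MX2 and 163 for SAMD9. MX2, OAS2, RSAD2 (viperin) and XAF1 stayed below 0.1 scaled FPKM in every library, and OASL, IFI27, IFITM1, BST2, DHX58, CMPK2 and IFI44 had overlapping groups. The highest value of IFI27 was 0.517, and that of CMPK2, a mitochondrial nucleotide kinase gene that overlaps RSAD2, was 0.235. IFI44 was at 0 in all 4 untreated wells and at 0.0333, 0, 0.215 and 0.0363 with dexamethasone, and its deposited locus overlaps that of IFI44L on the same strand.

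In the other 6, all with dexamethasone above, the groups did not overlap, and in none of the 17 was dexamethasone below without overlap. Among all 4400 genes under the filter with a value above 0, 5.98% were above and 8.68% below without overlap. IFIT2 is described with its cluster. IFI44L, a feedback regulator of the interferon response, was at 0, 0.0126, 0.00903 and 0 untreated, no more than about 2 fragments, and at 0.212, 0.204, 0.284 and 0.114 with dexamethasone, 18 to 46 estimated fragments. TRIM22, a restriction factor, was at 0.185, 0.0737, 0.177 and 0.0165 untreated and at 0.996, 0.303, 0.575 and 0.639 with dexamethasone, and its locus overlaps that of TRIM5.

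SAMD9 and SAMD9L, neighbours on chromosome 7 whose products restrict poxviruses, shared the direction. SAMD9 was at 0.171, 0.383, 0.168 and 0.0287 untreated and at 0.915, 0.437, 0.818 and 0.5 treated, and SAMD9L was lower, at 0.0160 to 0.0552 and 0.0575 to 0.151. GBP1 was at 0.294, 0.235, 0.231 and 0.229 untreated and at 0.556, 0.342, 0.365 and 0.491 with dexamethasone, so that the lowest treated well was just above the highest untreated one.

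A fit without the filter, in which 9.74% of 16561 genes were called higher and 12% lower, called IFIT2, IFI44L (0.26, adjusted p = 0.00245), SAMD9 (0.49, adjusted p = 0.0221), TRIM22 (0.54, adjusted p = 0.016) and GBP1 (0.20, adjusted p = 0.0262) higher. SAMD9L missed the threshold (0.099, adjusted p = 0.0523). When the GC trend was removed from the same fit, IFIT2 stayed past the threshold (0.27, adjusted p = 0.0199), and the other 5 did not, with IFI44L at -0.019 (adjusted p = 0.924) and TRIM22 at 0.24 (adjusted p = 0.261). Removing the trend also shifts genes with almost no reads, such as XAF1, whose change went from 0.0037 to -0.15. A part of GC content and such a shift cannot be told apart in this fit. Whether the lost calls depended on GC content was not tested. A change at such low levels is small against the value of 1 added before the logarithm. Without the filter and both libraries numbered 5, 2662 of 16426 genes were called higher and 2948 lower. GBP1 then lost its call (0.18, adjusted p = 0.0721), SAMD9L gained one (0.14, adjusted p = 0.0143), and IFIT2, IFI44L, SAMD9 and TRIM22 kept theirs.

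**Figure D3:**
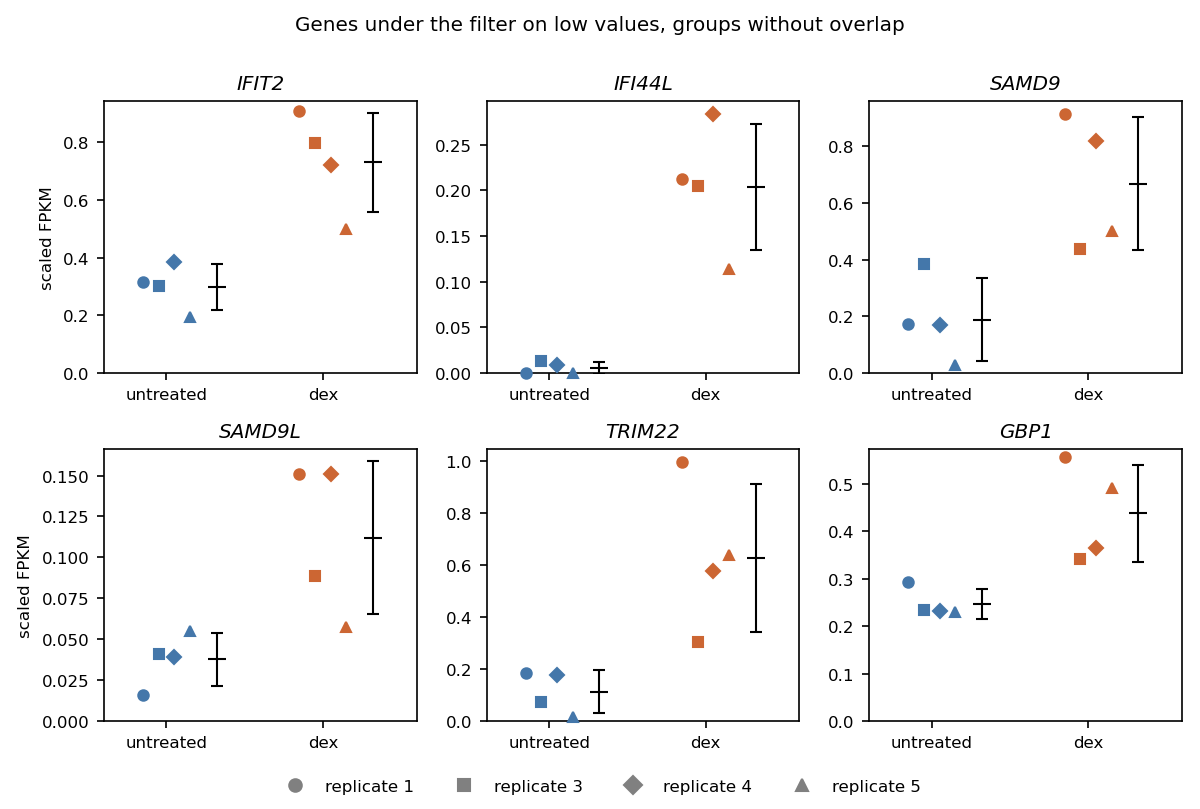
Scaled FPKM of the 6 genes under the filter on low values whose untreated and dexamethasone ("dex") wells did not overlap; marker shapes give the well number, and bars the mean and SD of 4 wells. The genes were picked for this separation, all values lie below 1, and IFI44L is near 0 in the 4 untreated wells.

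Changes followed GC content across the whole table. Over 12130 genes the change and the GC content of the longest annotated transcript had a Spearman correlation of -0.444, across genes, which share the same 8 libraries. Of the 15 tested interferon-stimulated genes with a GC content under 45%, 10 had a positive change, and of the 17 at or above it, 7 had. Genes called higher had a GC content of 37.5% (IFIT5) to 51.0% (STAT2), and genes called lower 40.7% (OAS1) to 51.2% (OAS3). STAT2 and OAS3, at the upper end of these ranges, had nearly equal GC content and opposite changes.

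With the GC trend removed, which raised the calls over all genes to 16.7% higher and 19.9% lower, 7 of the 8 called genes were called in the same direction. Their changes were then 0.94 for STAT2, 0.64 for IFIT1, 0.48 for IFIT3, 0.39 for IFIT5, -1.09 for OAS3, -0.91 for OAS1 and -0.63 for HERC5. IRF1, ISG20, IFI6, USP18 and DDX58 became called lower, and IFITM2 and UBE2L6 higher. The part of GC content in any of these changes was not tested.

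**Figure D4:**
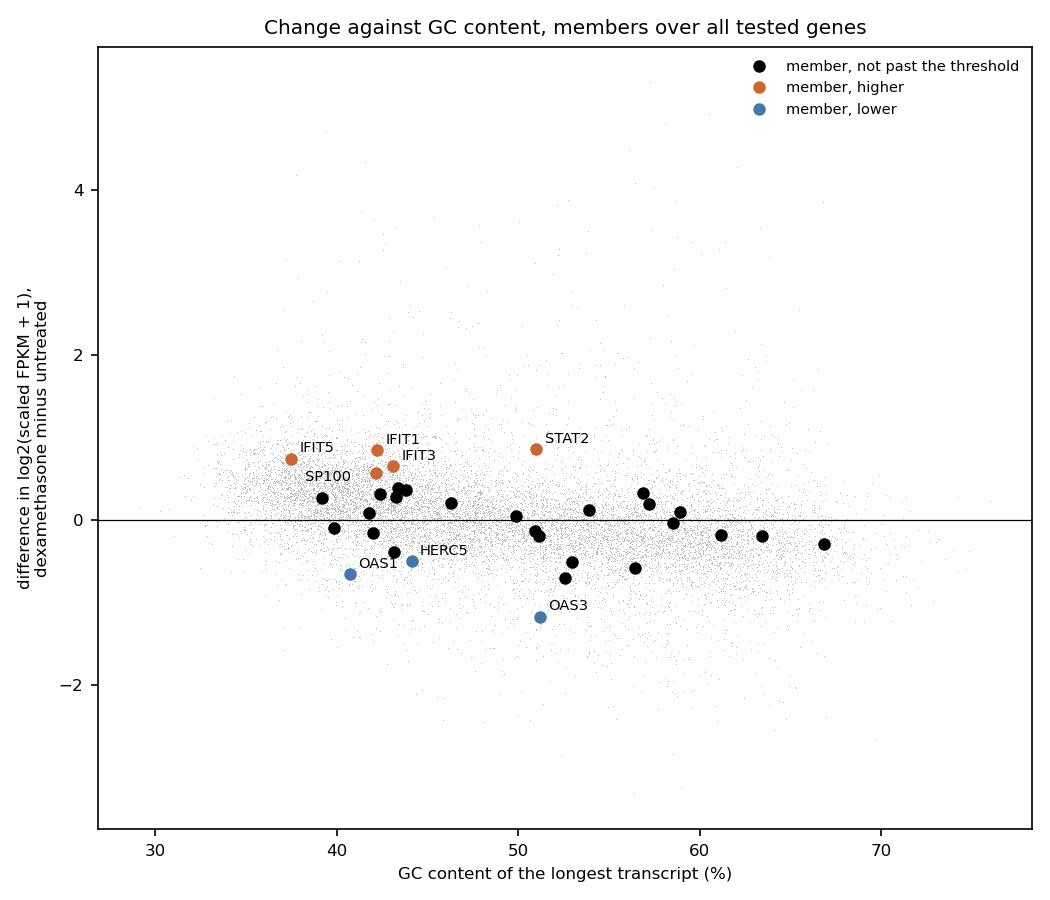
Change on the log2(scaled FPKM + 1) scale against GC content of the longest transcript, in percent, for all tested genes with a GC value (grey dots) and the tested interferon-stimulated genes (large points; orange higher, blue lower, black not called). The grey cloud slopes downward, and OAS1 and HERC5 lie toward its lower edge on the side of low GC content.

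The genes that carry the interferon signal were tested as a second list of 59 genes, of which 58 were in the table and 31 were tested. Dexamethasone raised 6 and lowered 3 of the 31 (29%, beside 26.9% of all genes tested), and the median change was 0.093. Of the ligands, 19 of the 20 interferon genes in the table, with IFNB1 among them, were listed at 0 in all 8 libraries. IFNE, an interferon of epithelia, reached 0.683 at most and was under the filter, and IFNK was not analysed here.

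Receptors and kinases showed 3 genes higher of 9 tested. IFNGR1, a receptor chain for interferon gamma, was at 8.10, 8.23, 7.13 and 3.99 scaled FPKM untreated and at 19.1, 28.5, 29.8 and 25.5 with dexamethasone, a change of 1.79 (SE 0.22, adjusted p = 0.000353). JAK1, the kinase shared by interferon receptors, was at 48.3 ± 5.68 and 113 ± 2.12 (SD, n = 4 each; 1.21, SE 0.13, adjusted p = 0.000116). JAK2, which pairs with the interferon gamma receptor, was low, at 0.916 ± 0.249 and 1.79 ± 0.340 (0.55, SE 0.13, adjusted p = 0.0125), and its call was lost with the GC trend removed (0.18, adjusted p = 0.312). The type I receptor chains did not pass, IFNAR1 with a change of 0.56 (SE 0.24, adjusted p = 0.113) and IFNAR2 with -0.11 (SE 0.24, adjusted p = 0.743), nor did TYK2 (-0.27, SE 0.14, adjusted p = 0.179).

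Of the STAT and IRF genes outside the 49, STAT3, IRF2 and IRF3 had changes of 0.23, 0.23 and -0.30, none past the threshold.

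Upstream sensing genes went both ways, with 1 higher and 2 lower of 8 tested. CGAS, the sensor of cytosolic DNA, fell from 6.16 ± 0.599 to 3.39 ± 0.379 (SD, n = 4 each; -0.71, SE 0.12, adjusted p = 0.00242). IKBKE, a kinase that activates IRF3 and IRF7, fell from 7.57 ± 1.70 to 3.76 ± 0.626 (-0.84, SE 0.16, adjusted p = 0.00484). IFI16, another DNA sensor, rose from 1.53 ± 0.462 to 3.04 ± 0.0863 (0.69, SE 0.14, adjusted p = 0.00534), and TRAF3 did not pass (-0.51, adjusted p = 0.109). Among 9 tested inhibitors of the signal, IRF2BP1, a corepressor, fell (-0.94, SE 0.20, adjusted p = 0.00704), and PIAS1, which restrains activated STAT proteins, rose (0.76, SE 0.18, adjusted p = 0.0117). PTPN11 and SOCS3 were not called, with changes of 0.66 (adjusted p = 0.143) and -0.29 (adjusted p = 0.217).

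**Figure D5:**
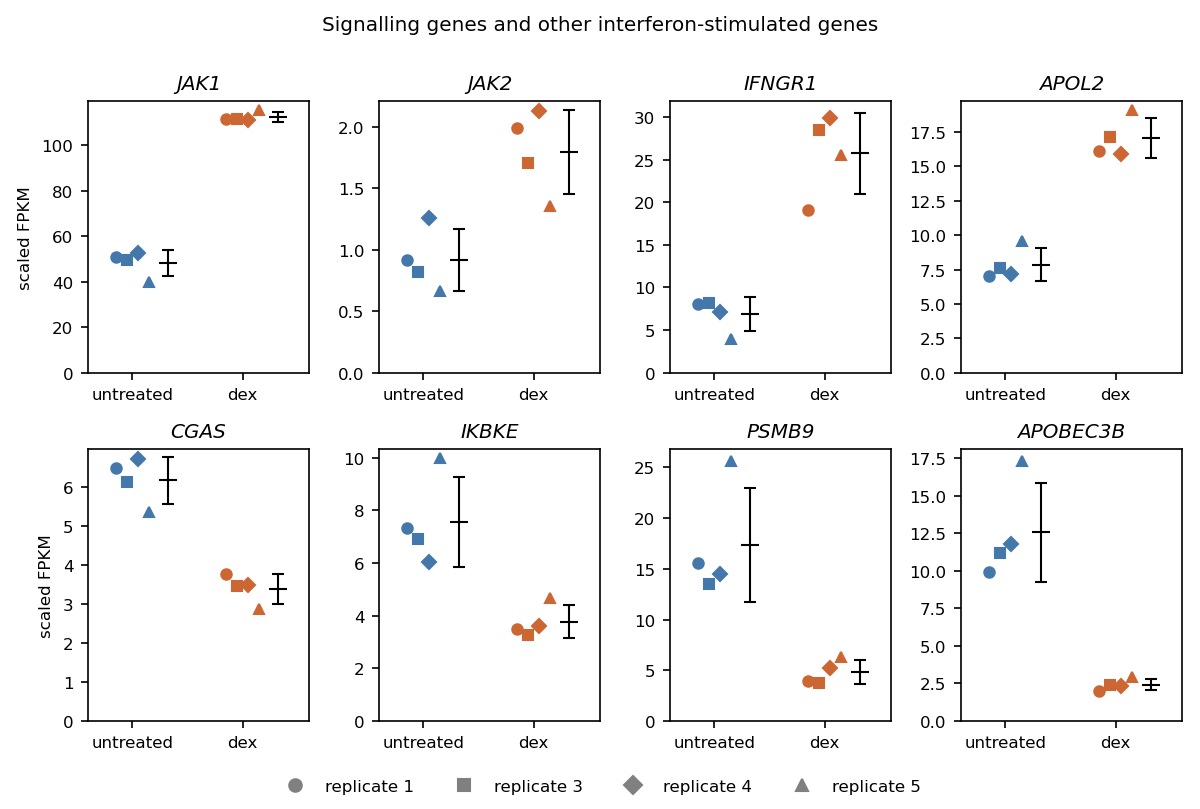
Scaled FPKM of JAK1, JAK2, IFNGR1, APOL2, CGAS, IKBKE, PSMB9 and APOBEC3B in 4 untreated and 4 dexamethasone ("dex") wells; marker shapes give the well number, and bars the mean and SD of each group. The first 4 genes were called higher and the other 4 lower, without overlap of the groups.

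A further 48 tested interferon-stimulated genes outside the 49 gave 6 higher and 8 lower calls (29.2%, beside 26.9% of all genes tested), with a median change of -0.11. The 4 with the smallest p were APOBEC3B, APOL2, PSMB9 and PSME2. APOBEC3B, a DNA cytidine deaminase, fell from 12.5 ± 3.27 to 2.41 ± 0.375 scaled FPKM (SD, n = 4 each; change -1.97, SE 0.18, adjusted p = 4.43e-05). PSMB9, a subunit of the immunoproteasome, fell from 17.3 ± 5.63 to 4.82 ± 1.17 (-1.63, SE 0.22, adjusted p = 0.000545), and PSME2, part of the proteasome activator, from 45.1 ± 8.63 to 26.6 ± 2.94 (-0.73, SE 0.15, adjusted p = 0.00666). APOL2, an apolipoprotein L gene, rose from 7.86 ± 1.19 to 17.1 ± 1.47 (1.03, SE 0.13, adjusted p = 0.000362). Chemokine gene CXCL9 was not analysed here.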

How the data were processed

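Total RNA of 8 wells was depleted of ribosomal RNA and sequenced as paired ends, per the labels' protocols. FastQC 0.11.9, Cutadapt 3.4, STAR 2.7.9a, featureCounts, Subread 2.0.3, DESeq2 1.32.0 and the build GRCh38 are named in the submitters' processing notes, with no role or order. The values the authors deposited are 1 table per well of FPKM, read as such from the values, since they are not whole numbers and fit no count test. Low values fell within 0.1 of a whole number of fragments in 44.1% to 48.3% of cases, so the depths are estimates, whole counts were not recovered, and no interval was computed from them. Gene loci are the deposited ones; transcript lengths and GC content came from GENCODE v44.

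FPKM were divided by factors of trimmed-mean type (0.822 to 1.08), with trims of 0.3 of log ratios and 0.05 of mean levels. Genes with at least 0.5 FPKM in at least 4 libraries were tested with limma 3.58.1 in R 4.3.3 on log2(scaled FPKM + 1), with trended, robust variances, two-sided, and Benjamini-Hochberg adjustment over all 12161. The same code was tested on simulated data. Every gene of the 49 may be named; called genes, transcription factors and RNA sensors are given in full, genes of the other lists when among the 4 smallest p, and a few signalling and treatment genes always. The result of 1 listed gene is counted in its list and not reported here. The members and lists were chosen with earlier results of these data known. Alternatives covered the pseudocount, filter, scaling, variance trend, GC content, a replicate block and libraries left out; the combinations of no filter with GC removal or without both libraries numbered 5 were added after seeing the data.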

Additional observations from a re-analysis of the deposited data

Results flagged for a closer look

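In 17 of 112 groups of 4 wells, 1 well lay so far from the other 3 that the gap exceeded the 95% critical value of Dixon's test; chance gives about 1 in 20 groups, here about 6. Untreated well 5 was the distant well in 10 groups, dexamethasone well 5 in 5 and dexamethasone well 1 in 2. Untreated well 5 was high for ISG15 (10.3 scaled FPKM against at most 4.68 in the other 3), ISG20 (4.57 against 2.84), IFI6 (9.15 against 5.25), IFI35 (21.8 against 11.4), IFITM3 (15.0 against 8.33) and IRF1 (16.4 against 7.75). It was also high for IRF2BP1 (48.8 against 28.4), PSMB9 (25.7 against 15.6) and PSME2 (58.0 against 42.0), and low for IFNAR1 (2.98 against at least 6.31). Dexamethasone well 5 was high for IFI35 (16.0 against 11.6), IRF1 (6.60 against 4.96) and JAK1 (115.7 against 111.7), and low for IFIT3 (1.97 against 2.10) and IFNAR1 (6.16 against 9.12). Dexamethasone well 1 was high for IFIH1 (1.54 against 0.936) and low for HERC5 (0.884 against 1.13).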

How the results depend on the processing

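STAT2, IFIT1, IFIT3, OAS3 and HERC5 kept direction and call under all 20 alternatives, as did 19 of the 23 called genes named in the text; IFIT5, OAS1, SP100 and JAK2 are the exceptions. The 5 higher calls among the 49 genes became 10 without the filter, 8 without both libraries numbered 5, 11 with both of these changes, and 4 to 8 with 1 library left out. Where the filter was kept and libraries were left out, it asked for at least 3 libraries. IFIT2 and TRIM22, called higher in some of those fits, entered them only through their dexamethasone wells. A part of the rise in higher calls there thus comes from the filter. The 3 lower calls became 5 at an FPKM of at least 1, 7 without scaling, 8 with the GC trend removed, 7 without both libraries numbered 5, 7 without the filter combined with either of the last 2, and 2 to 7 with 1 library left out. Lower calls in the signalling list (3) became 5 without the filter, 5 without both libraries numbered 5, and 8 with both changes; in the list of further interferon-stimulated genes 6 higher became 2 to 5 and 8 lower became 5 to 8 with 1 library left out, and 8 lower became 13 without filter and both libraries numbered 5. Over all genes, 1495 higher and 1774 lower became 2680 and 2828 without both libraries numbered 5, 2662 and 2948 without the filter as well, and 1020 to 1749 and 1320 to 2154 with 1 library left out. Same-numbered wells correlated at 0.292, 0.066, 0.314 and 0.713 for wells 1, 3, 4 and 5, so the numbers were not taken to pair them, and not every well correlated best with its own number. With the replicate block, calls were 6 higher and 7 lower among the 49, 10 and 5 in the signalling list, 10 higher among the further genes, and 2881 and 2870 over all genes. With replicate block and GC trend removed they were 9 lower among the 49, 11 higher in the signalling list, 17 lower among the further genes, and 2482 and 2892 over all. Of the named genes that passed the filter, only some without a call changed sign. With the GC trend removed, with or without the block, these were ISG15 (0.057), MX1 (-0.14), IFI35 (0.14), IRF7 (0.016), EIF2AK2 (-0.037) and LGALS3BP (0.024); without the filter as well, MX1 (-0.091) and IFI35 (0.099), and, of the 5 genes under the filter that were called without it, IFI44L (-0.019) and GBP1 (-0.0061). Without both libraries numbered 5 they were IFI35 (0.084) and ADAR (-0.026), and without the filter too IFI35 (0.085) and ADAR (-0.024). With 1 library left out, ISG15 ran from -0.35 to 0.077, IFI35 from -0.17 to 0.19, IFITM3 from -0.021 to 0.30, IRF9 from -0.014 to 0.27, DDX58 from -0.32 to 0.0024, TRIM21 from -0.24 to 0.0066, EIF2AK2 from -0.008 to 0.37, ADAR from -0.024 to 0.17 and IFNAR2 from -0.35 to 0.0098. The cause of these shifts was not tested. Depth limits those of the 17 genes under the filter that rest on a few fragments, such as MX2, OAS2 and XAF1.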
